A study of Mus musculus with 4 samples.

Results

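Iron handling and ferroptosis defence were followed through 10 genes in ID8 cells, a mouse ovarian cancer cell line: Fth1, Ftl1, Tfrc, Slc40a1, Ireb2, Aco1, Hmox1, Gpx4, Acsl4 and Ncoa4. The genes were taken by symbol from a table of 22063 genes, and each of the 10 symbols matched 1 row. Polyadenylated RNA was sequenced from cells with a control shRNA (shCtrl, labelled wild type, 2 libraries) and from cells with an shRNA against the deubiquitinase USP9X (shUSP9X, labelled as USP9X knockdown, 2 libraries). The shRNAs were delivered in the lentiviral vector pLKO.1-puro. The sources used here do not say which USP9X shRNA the libraries carried, whether TGF-β was added, at which oxygen level the cells grew, or whether the 2 libraries of a group came from separate cultures, so p-values measure the spread between these libraries, which may be technical. Sequencing depth was close between groups, at 17232006 and 15611363 counts per shCtrl library and 19978889 and 17021261 counts per shUSP9X library.

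Cells take up iron bound to transferrin through the transferrin receptor (Tfrc), store it in ferritin shells built of heavy (Fth1) and light (Ftl1) chains, and release it through ferroportin (Slc40a1). NCOA4 carries ferritin to the lysosome, where the stored iron is set free, and heme oxygenase 1 (Hmox1) frees iron from heme. In cells low in iron, the iron regulatory proteins IRP1 (Aco1) and IRP2 (Ireb2) bind a hairpin called the iron-responsive element, which blocks translation when it lies in the 5′ UTR and stabilizes the Tfrc mRNA when it lies in the 3′ UTR. Ferroptosis is a form of cell death driven by iron-dependent peroxidation of membrane lipids; GPX4 reduces the lipid peroxides, and ACSL4 loads membranes with the polyunsaturated fatty acids that are peroxidized.

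The iron-responsive elements were read from the annotated UTRs (GRCm38, GENCODE M21) because they are the sequences through which the proteins encoded by Aco1 and Ireb2 act on the other genes. The search took the letters CNNNNNCAGTGN on the transcript's strand, with the 5 bases on each side of the loop able to pair, and capitals mark the bulged C and the 6-base loop. Each of the sites is 29 bases long.
Fth1, 5′ UTR: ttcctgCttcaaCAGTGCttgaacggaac
Ftl1, 5′ UTR: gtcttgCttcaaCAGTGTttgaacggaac
Slc40a1, 5′ UTR: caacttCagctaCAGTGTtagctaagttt
Tfrc, 3′ UTR, site 1: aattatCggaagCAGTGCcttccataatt
Tfrc, 3′ UTR, site 2: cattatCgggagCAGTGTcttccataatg
Tfrc, 3′ UTR, site 3: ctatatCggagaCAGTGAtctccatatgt
Tfrc, 3′ UTR, site 4: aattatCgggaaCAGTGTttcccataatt

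The Fth1 site lies at chr19:9982732-9982760 (plus strand) and the Ftl1 site at chr7:45459779-45459807 (minus strand), both in exon 1 of 4. The Slc40a1 site lies at chr1:45925465-45925493 (minus strand) in exon 1 of 8. The 4 sites of Tfrc stand in exon 19 of 19 on the plus strand, at chr16:32631219-32631247, chr16:32631598-32631626, chr16:32631663-32631691 and chr16:32631710-32631738. The letters alone occurred in a 5′ UTR of 12% of 20673 genes and in a 3′ UTR of 36.0% of 20793 genes, counting any annotated coding transcript. With the paired stem they occurred in 0.15% and 0.616% of these genes. The other 6 genes held no paired match in the UTRs of any annotated coding transcript, which says only that no such match is in those windows.

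The knockdown and the identity of the cells were checked first. Usp9x stood at 298 and 282 CPM (counts scaled to a common library size, with TMM factors) in shCtrl and at 19.7 and 20.5 CPM in shUSP9X, a log2 fold change of -3.85 ± 0.0585 (SE; n = 2 per group; edgeR adjusted p = 4.7e-26). Markers of ovarian surface epithelium and mesothelium were abundant in every library, with a summed level of 2840 and 2890 CPM in shCtrl and 3240 and 3180 CPM in shUSP9X. Of these 13 markers, 12 exceeded 3 counts in both shCtrl libraries and 11 in both shUSP9X libraries, and Krt19 was the most abundant; Krt7, at 0 in shCtrl, was at 2 and 3 counts in shUSP9X. Of the 11 tested markers, 6 were lower and 4 higher (median log2 fold change -0.18), among them Wt1 at -0.52, Msln at -0.47, Gata6 at -0.54, Krt8 at 0.92 and Krt18 at 0.64, where 33.6% of all genes were lower and 33.8% higher. With an offset for transcript GC content and length 7 were lower and 3 higher (median -0.301), and Krt19 turned from 0.12 to -0.15. The endothelial marker list summed to 10.7 and 11.7 CPM in shCtrl and 6.88 and 7.18 CPM in shUSP9X, with Tek the most abundant of its 6 genes and Cdh5, Emcn and Kdr at 0 in all 4 libraries.

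Across all genes, 7707 of 11448 tested (67.3%) passed an adjusted p of 0.05, 33.6% lower and 33.8% higher in shUSP9X. A passing call on its own was therefore common in this comparison. All 10 genes passed the filter on low counts. In shUSP9X, 5 of them rose (Fth1, Ftl1, Aco1, Hmox1 and Gpx4), 4 fell (Tfrc, Ireb2, Acsl4 and Ncoa4) and Slc40a1 was not called. The median log2 fold change of the 10 was 0.0634, beside -0.000513 over all genes tested. At the study's cutoff, an unadjusted p under 0.05 with a fold change above 1.5, 4 were higher (Fth1, Ftl1, Aco1 and Hmox1) where 10.8% of all genes were, and 2 were lower (Ireb2 and Acsl4) where 18.7% of all genes were. Because fold change moved with transcript composition, each gene was also fitted with an offset that removes each library's trend on GC content and transcript length; the 5 rises kept their call with it and the 4 falls did not.

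**Figure D1:**
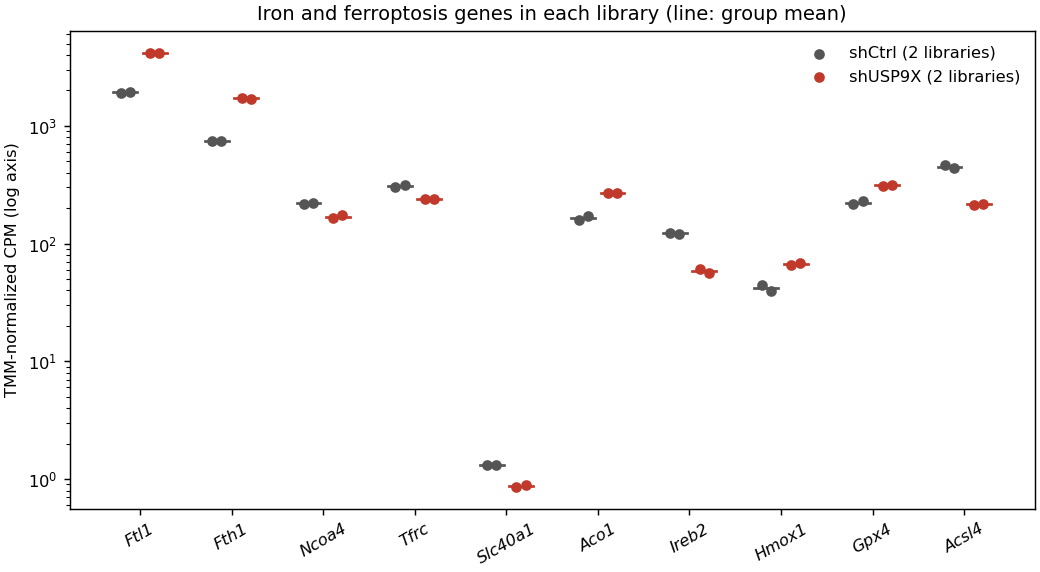
Each point is 1 library and each line the mean of 2, as TMM-normalized CPM on a log axis, for the 10 genes in shCtrl (grey) and shUSP9X (red). Within each gene the 2 groups do not overlap in CPM. The share of all genes that separate likewise is not given here, but 67.3% of genes tested passed an adjusted p of 0.05. Slc40a1, near 1 CPM, did not pass the test, and its groups overlap in FPKM. CPM is not scaled for transcript length, so heights are compared within a gene only.

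Of the 10 genes, the pair that encodes ferritin rose the most. Fth1, the chain with the ferroxidase site, stood at 746 and 743 CPM in shCtrl and at 1736 and 1696 CPM in shUSP9X. Both shUSP9X libraries lay above both shCtrl libraries, with a gap far wider than the spread within a group. The rise was 2.3-fold (log2 fold change 1.20 ± 0.0308 SE, 95% confidence interval 1.14 to 1.27, edgeR adjusted p = 8.8e-22), which placed Fth1 at the 97.5 percentile of all fold changes. Fth1 spans chr19:9980598-9985098 on the plus strand.

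Ftl1, the chain that aids formation of the iron core, stood at 1918 and 1952 CPM in shCtrl and at 4161 and 4153 CPM in shUSP9X. Its groups were likewise far apart. The rise was 2.15-fold (log2 fold change 1.10 ± 0.0272 SE, 95% confidence interval 1.05 to 1.16, edgeR adjusted p = 3.7e-22). Ftl1 spans chr7:45457944-45459884 on the minus strand. Per length, in FPKM, Ftl1 went from the level ranked 13 of all genes in shCtrl to rank 4 in shUSP9X, and Fth1 from rank 64 to rank 17. Together the 2 ferritin genes took 0.268% and 0.273% of all counts in shCtrl and 0.583% and 0.579% in shUSP9X.

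The balance of light and heavy chain differed little between groups, and how it differed depended on the scale. The FPKM ratio of Ftl1 over Fth1 was 2.31 and 2.35 in shCtrl and 2.24 and 2.33 in shUSP9X, so the ranges of the groups overlapped. The ratio of their counts was 2.57 and 2.63 in shCtrl and 2.40 and 2.45 in shUSP9X, with no overlap, and with the offset the interval for Fth1 (0.86 to 0.97) lay above that for Ftl1 (0.76 to 0.85). Ferritin genes have processed copies, and reads can be split among them: by coding sequence, 7 annotated genes were at least 90% identical to Ftl1 over at least 50% of its length, and 1 to Fth1. The only such copy with a row in the table, Ftl1-ps1, was given 28.8 and 33.7 counts in the control libraries and 88.3 and 43.7 after knockdown, against 33269, 30858, 82241 and 69969 counts for Ftl1. Ftl1 also shares 355 exon bases with Gm10252 on the opposite strand and 109 with Gm22133 on the same strand, and neither has a row in the table. The size of the Ftl1 and Fth1 values is uncertain to that degree.

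Ncoa4, the cargo receptor that brings ferritin to the autophagosome, was lower in shUSP9X without the offset and was not called with it. It stood at 217 and 223 CPM in shCtrl and at 166 and 174 CPM in shUSP9X, with no overlap. The log2 fold change was -0.37 ± 0.0434 (SE, 95% confidence interval -0.46 to -0.28, edgeR adjusted p = 2.7e-08). A copy, Gm6768, matched 99.9% of its coding sequence and had no row in the table, so this value too is uncertain. Ncoa4 spans chr14:32159865-32179855 on the plus strand.

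The gene for iron uptake fell slightly without the offset and turned with it, and the gene for iron export was barely detected. Tfrc, the transferrin receptor, stood at 305 and 312 CPM in shCtrl and at 239 and 241 CPM in shUSP9X. The groups did not overlap, and the level in shUSP9X was 0.777 of that in shCtrl (log2 fold change -0.36 ± 0.0385 SE, 95% confidence interval -0.44 to -0.28, edgeR adjusted p = 4.7e-09). With the offset its log2 fold change was 0.70. Tfrc spans chr16:32608920-32632794 on the plus strand.

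Slc40a1, ferroportin, was listed at 23 and 21 counts in the control libraries, against 17 and 15 after knockdown. On the CPM scale this was 1.33 and 1.33 against 0.86 and 0.89. The log2 fold change of -0.60 ± 0.424 (SE) had a 95% confidence interval from -1.47 to 0.27 and did not pass the test (edgeR adjusted p = 0.22), so a difference was not detectable at this depth. Its mean FPKM was 0.398 in shCtrl and 0.362 in shUSP9X, ranked 11064 and 10982 among all genes. On that scale the groups overlapped, at 0.396 and 0.399 in shCtrl and 0.463 and 0.261 in shUSP9X. Slc40a1 spans chr1:45908068-45926523 on the minus strand.

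Without the offset, the genes of the 2 iron regulatory proteins went opposite ways, and with it both were called higher. Aco1, which encodes IRP1, a cytosolic aconitase that binds iron-responsive elements once its iron-sulfur cluster is lost, stood at 159 and 170 CPM in shCtrl and at 272 and 271 CPM in shUSP9X. All shUSP9X values lay above the shCtrl values. The rise was 1.65-fold (log2 fold change 0.72 ± 0.0433 SE, 95% confidence interval 0.64 to 0.81, edgeR adjusted p = 5.4e-14). Aco1 spans chr4:40143081-40198338 on the plus strand.

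Ireb2, which encodes IRP2, a protein degraded in iron-replete cells, stood at 123 and 121 CPM in shCtrl and at 60.4 and 56.8 CPM in shUSP9X. Its level in shUSP9X was 0.481 of that in shCtrl (log2 fold change -1.06 ± 0.055 SE, 95% confidence interval -1.17 to -0.94, edgeR adjusted p = 3.1e-15). The FPKM ratio of Aco1 over Ireb2 was 1.93 and 2.09 in shCtrl and 6.78 and 7.19 in shUSP9X. This ratio sets a gene of 52.1% GC against one of 39.0%, and with the offset the log2 fold changes were 0.62 for Aco1 and 0.24 for Ireb2. Ireb2 spans chr9:54863789-54912530 on the plus strand.

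Hmox1, the enzyme that opens heme and releases its iron, stood at 44.2 and 39.3 CPM in shCtrl and at 65.5 and 67.9 CPM in shUSP9X. The shUSP9X libraries were both higher. The rise was 1.59-fold (log2 fold change 0.67 ± 0.0695 SE, 95% confidence interval 0.53 to 0.81, edgeR adjusted p = 3.1e-09). Hmox1 spans chr8:75093621-75100589 on the plus strand.

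The 2 genes of ferroptosis itself also went opposite ways without the offset, and both were called higher with it. Gpx4, the selenoenzyme that reduces phospholipid hydroperoxides, stood at 217 and 229 CPM in shCtrl and at 311 and 316 CPM in shUSP9X. It rose 1.41-fold (log2 fold change 0.49 ± 0.0402 SE, 95% confidence interval 0.41 to 0.57, edgeR adjusted p = 3.5e-11). By sequence 2 processed copies match Gpx4, the closer, Gpx4-ps2, over 509 bases at 99.6%, and neither has a row in the table, so the value is uncertain in the same way. Gpx4 spans chr10:80047166-80056439 on the plus strand.

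Acsl4, which activates arachidonic and adrenic acid for membrane lipids, stood at 465 and 436 CPM in shCtrl and at 212 and 218 CPM in shUSP9X. Its level in shUSP9X was 0.477 of that in shCtrl (log2 fold change -1.07 ± 0.0402 SE, 95% confidence interval -1.15 to -0.98, edgeR adjusted p = 3.1e-18). With the offset Acsl4 turned to 0.17. In FPKM, Acsl4 went from rank 823 to rank 2189 and Gpx4 from rank 255 to rank 200. Acsl4 spans chrX:142317993-142390535 on the minus strand.

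Fold change moved with transcript composition across all genes, and the 10 genes were spread along that trend. The tested genes were put in 10 bins of equal size by GC content. In bin 1 (31.9% to 41.7% GC) the median log2 fold change was -0.877 and 82.2% of genes were called lower. In bin 2 (41.7% to 44.2%) the median was -0.412, and in bin 8 (53.9% to 55.9%) it was 0.247. The 4 genes that fell all lay in bins 1 and 2: Ireb2 and Acsl4 at 39.0% GC, Tfrc at 39.8% and Ncoa4 at 43.8%. Their longest transcripts were also long, from 4065 bases for Ncoa4 to 5770 for Ireb2. The 5 genes that rose had a GC content from 52.1% (Aco1) to 60.2% (Gpx4). They lay in bins 6, 7, 9 and 10, where 41.8%, 47.9%, 50.1% and 44.6% of genes were called higher, beside 33.8% over all genes.

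**Figure D2:**
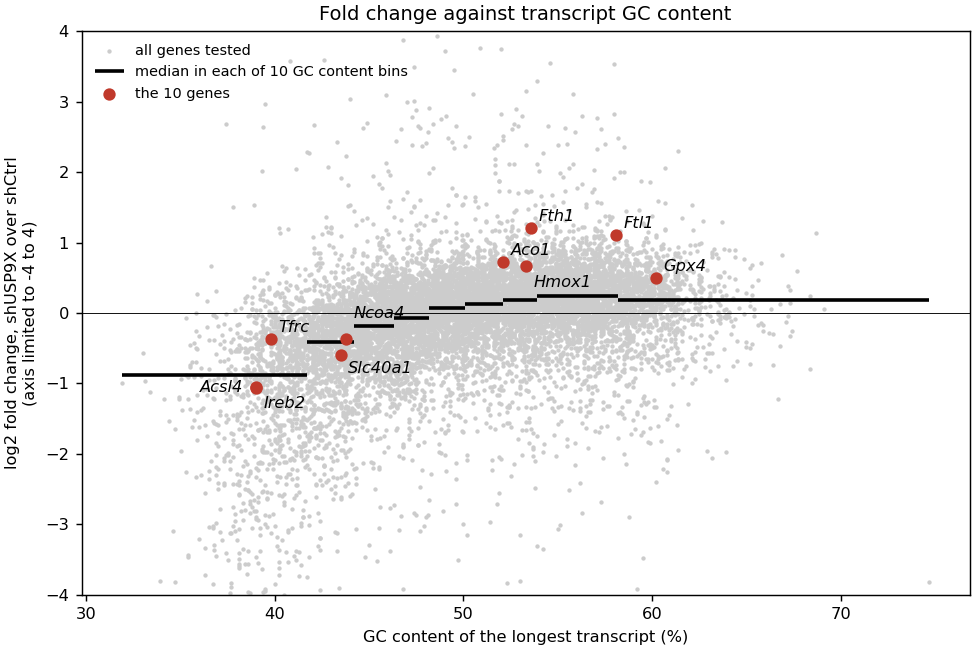
Log2 fold change (shUSP9X over shCtrl) against the GC content of the longest coding transcript for all genes tested (grey), with the median of each of 10 GC content bins (black bars) and the 10 genes (red). Tfrc, Ireb2 and Acsl4 lie in the lowest bin, whose median is -0.877, while Fth1, Ftl1, Aco1, Hmox1 and Gpx4 lie above the medians of their bins.

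The offset on GC content and length changed which of the 10 genes were called. With it, 25.6% of all genes were lower and 38.6% higher, with a median of 0.072. Of the 10 genes, 8 were then called higher and 0 lower, with a median of 0.318. The 5 genes that rose kept their direction and their call: Fth1 at 0.92, Ftl1 at 0.81, Aco1 at 0.62, Hmox1 at 0.40 and Gpx4 at 0.22, all as log2 fold changes. The Gpx4 value is, on the log2 scale, less than 50% of its value without the offset, and its interval, 0.15 to 0.30, still lies above 0.

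None of the 4 falls remained. Tfrc turned to a log2 fold change of 0.70 (95% confidence interval 0.63 to 0.78, edgeR adjusted p = 9.1e-15), Ireb2 to 0.24 (0.13 to 0.35) and Acsl4 to 0.17 (0.10 to 0.24), and Ncoa4, at 0.04 (-0.04 to 0.12), was no longer called. The longest transcripts of Tfrc, Ireb2 and Acsl4 have 4890, 5770 and 5280 bases. Without the offset Tfrc fell by 0.36, Ireb2 by 1.06 and Acsl4 by 1.07, and the interval for Tfrc met neither of theirs. In that fit Ireb2 and Acsl4 lay just below the median of their GC content bin, Ncoa4 just above its own, and Tfrc well above. The reason for these differences was not tested. Whether the trend on composition is of the cells or of the libraries cannot be told apart with these 4 libraries. Usp9x, the knockdown target, at 40.0% GC and 11887 bases, went from a log2 fold change of -3.85 without the offset to -2.09 with it. The offset therefore also made the change of the targeted gene smaller.

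**Figure D3:**
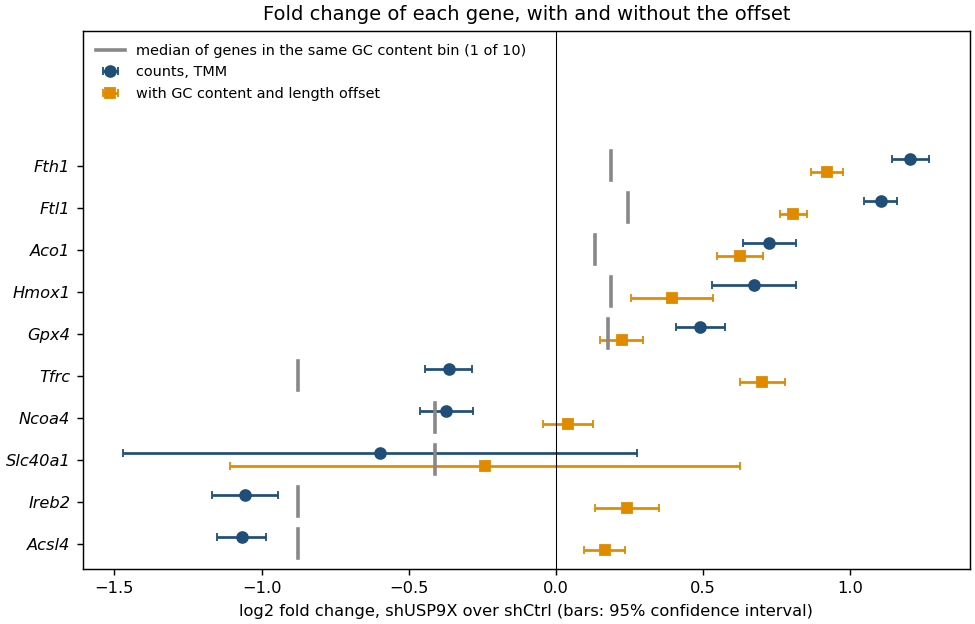
Log2 fold change of each of the 10 genes (shUSP9X over shCtrl) with its 95% confidence interval, from counts (blue circles) and after the offset for composition and length (orange squares), beside the median of the genes in the same GC content bin (grey bars). Fth1, Ftl1, Aco1, Hmox1 and Gpx4 stay above 0 in both fits, while Tfrc, Ireb2 and Acsl4 pass from below 0 to above it.

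Epas1 encodes HIF-2α, the transcription factor the study is about, whose mRNA is known as a target of the iron regulatory proteins. It stood at 23.99 and 25.74 CPM in shCtrl and at 7.69 and 8.61 CPM in shUSP9X. It fell by 1.61 on the log2 scale (SE 0.122, n = 2 per group, edgeR adjusted p = 7.3e-12), and by the same amount with the offset, at a GC content of 52.5%. The search above found no paired match in the UTRs of Epas1, so the counts that follow leave out this known target. Among all tested genes with a paired iron-responsive element by that search, 11 of 24 with a 5′ site were lower and 9 higher. Of 97 with a 3′ site, 34 were lower and 28 higher. Over all genes tested, 33.6% were lower and 33.8% higher, so the shares for the 3′ sites lie near the background. The median log2 fold changes were -0.309 and -0.0589.

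Beyond the 10 genes, 8 lists of related genes were counted. In all, 150 of their genes had a row in the table, and 26 were called lower and 68 higher. Not all of the 150 were tested, so shares are read per list, against the number tested there. Over all genes tested, 33.6% were lower and 33.8% higher, or 25.6% and 38.6% with the offset. Iron uptake and export had 4 genes lower, 8 higher and 4 not called of 16 tested, with a median log2 fold change of 0.201; with the offset 3 were lower and 11 higher. Lcn2, a siderophore-binding protein, rose by 2.01 ± 0.129 (SE; edgeR adjusted p = 2.3e-13), from 5.94 and 6.20 CPM to 25.2 and 23.7 CPM. Steap3, the endosomal reductase that works beside the transferrin receptor, rose by 1.46 ± 0.138, while Slc39a8, a metal importer, changed by -1.17 ± 0.166 and Cp, the ferroxidase ceruloplasmin, by -1.14 ± 0.0471. Cp had a GC content of 41.7% and shrank to -0.39 with the offset.

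Ferritin storage, ferritinophagy and control of the iron regulatory proteins had 7 genes lower, 7 higher and 5 not called of 19 tested, and a median of -0.047, shares near those over all genes (33.6% lower and 33.8% higher). With the offset 5 were lower and 9 higher, with a median of 0.107. Rb1cc1, the scaffold FIP200 of autophagy initiation, went from 143 and 133 CPM to 10.5 and 13.4 CPM (log2 fold change -3.55 ± 0.0805 SE, edgeR adjusted p = 6.9e-23), and kept a change of -2.10 with the offset. Tax1bp1, a cargo receptor that NCOA4 depends on, went from 207 and 192 CPM to 58.9 and 60.8 CPM (-1.74 ± 0.0525) and kept -1.20. Cul1, a scaffold of the ubiquitin ligase that degrades IRP2, changed by -0.68 ± 0.0455, and Gabarapl1, an ATG8 family member, rose by 0.65 ± 0.0665, and with the offset they were at -0.40 and 0.40.

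In heme synthesis and breakdown, 6 of 12 tested genes rose, 2 fell and 4 were not called (median 0.19), but with the offset 4 were higher and 4 lower and the median was -0.0668. Blvrb, a biliverdin reductase, rose by 1.58 ± 0.103, Alas1, the first enzyme of heme synthesis, by 0.88 ± 0.0805 and Fech, which inserts the iron, by 0.55 ± 0.0632 (1.03 with the offset). Bach1, a heme-binding repressor of Hmox1 and the ferritin genes, went from 52.6 and 50.5 CPM to 29.7 and 34.1 CPM (log2 fold change -0.70 ± 0.0797 SE, edgeR adjusted p = 1.9e-08; -0.36 with the offset). Iron-sulfur cluster assembly had 18 of 28 genes higher, 3 lower and 7 not called (median 0.339), and 14 higher and 2 lower with the offset; with the offset on GC content alone 0 were lower. Glrx5 rose by 0.91 ± 0.0857 and Lyrm4 by 0.71 ± 0.155.

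On the side of ferroptosis defence, the cystine and glutathione arm had 6 of 9 genes higher, 2 lower and 1 not called, with a median of 0.841, where 33.8% of all genes were higher; with the offset 7 were higher and 2 lower. Gclc and Gclm, the catalytic and modifier subunits of the rate-limiting enzyme of glutathione synthesis, rose by 0.93 ± 0.0542 and 0.92 ± 0.0589, and Gsr, glutathione reductase, by 0.92 ± 0.0421. Chac1, which degrades glutathione, went from 43.5 and 50.7 CPM to 12.4 and 10.1 CPM (log2 fold change -2.06 ± 0.109 SE, edgeR adjusted p = 4.4e-15). Slc7a11, the cystine transporter, named here after its values were seen, changed by -0.40 (edgeR adjusted p = 2.1e-04) and turned to 1.15 with the offset. On the FPKM scale its groups overlapped, at 5.39 and 4.49 in shCtrl and 5.06 and 5.55 in shUSP9X, and the list's lower calls went from 2 to 1 in both FPKM fits and with the offset on length alone. Gclm, at 42.1% GC, was at 1.75 with the offset, and the part of composition in its change was not tested.

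Defence that does not pass through GPX4 had 10 of 17 genes higher, 3 lower and 4 not called (median 0.291), and 12 higher and 3 lower with the offset. Nqo1, a quinone reductase, went from 25.6 and 26.7 CPM to 163 and 156 CPM, a log2 fold change of 2.61 ± 0.0605 (SE; edgeR adjusted p = 9.5e-23) and 2.50 with the offset. Prdx6, a peroxidase that acts on phospholipids, rose by 0.98 ± 0.0431 and Gch1, the first enzyme of tetrahydrobiopterin synthesis, by 0.74 ± 0.0946. Acsl3, which activates monounsaturated fatty acids, changed by -0.69 ± 0.0565, and by -0.23 with the offset. Selenoprotein synthesis, on which GPX4 depends, had 3 of 9 genes higher, 1 lower and 5 not called (median 0.207), near the 33.8% of all genes that were higher; with the offset 4 were higher and 1 lower (median 0.0892), and with the offset on length alone 5 were higher. Eefsec, the selenocysteine elongation factor, rose by 0.59 ± 0.0842, Sephs1 by 0.41 ± 0.0507 and Lrp8, a selenoprotein P receptor, by 0.30 ± 0.0616, while Sephs2, selenophosphate synthetase, changed by -0.37 ± 0.0555. With the offset these 4 were at 0.39, 0.78, 0.65 and -0.58, in that order.

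The supply and peroxidation of polyunsaturated lipids had 10 of 17 genes higher, 4 lower and 3 not called (median 0.198), and the same numbers were higher and lower with the offset. Far1 and Agps, enzymes of ether lipid synthesis, changed by -1.06 ± 0.0516 and -0.46 ± 0.0492, and both turned with the offset, to 0.50 and 0.64. Gnpat, the first enzyme of that pathway, rose by 0.48 ± 0.0722, and Cyb5r1, an oxidoreductase linked to lipid peroxidation, by 0.48 ± 0.0628 (0.23 with the offset). Alox5, a lipoxygenase named here after its values were seen, was at 0 in both shCtrl libraries and at 14 and 15 counts in shUSP9X.

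**Figure D4:**
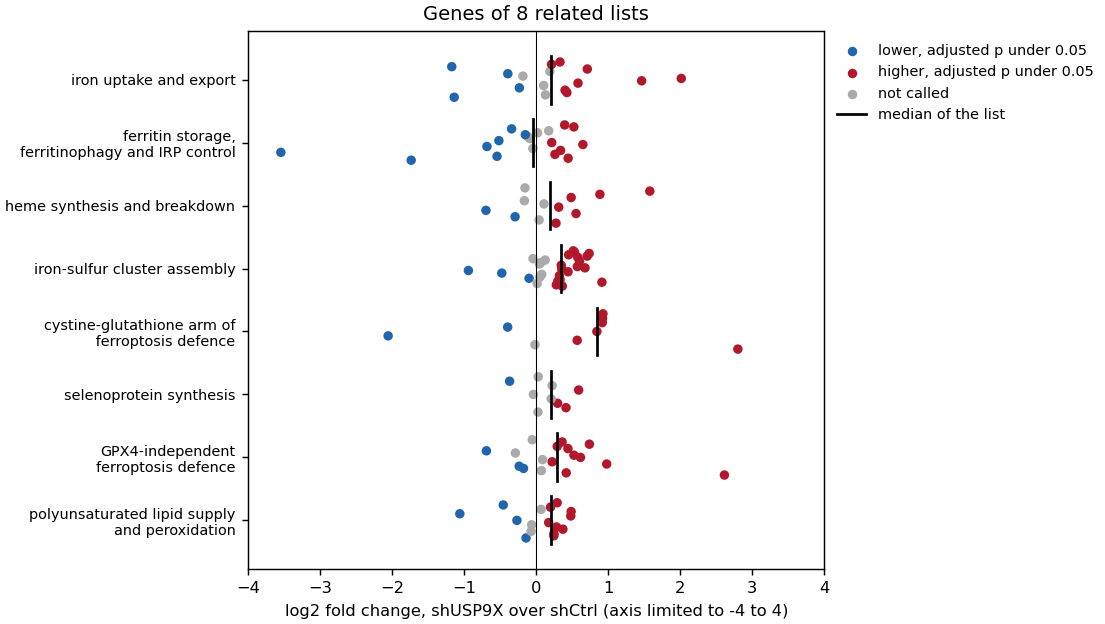
Each point is 1 tested gene of a list, by its log2 fold change (shUSP9X over shCtrl, axis limited to -4 to 4), coloured by its call at an adjusted p of 0.05, with the list's median as a black line. The cystine and glutathione list has the highest median, 0.841, and the ferritin storage list the lowest, -0.047, both without the offset (0.799 and 0.107 with it, where the heme list is lowest at -0.0668); Alox5, at 0 in shCtrl, lies beyond the axis.

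Macrophages and red cell precursors are rich in several of the 10 genes, so their markers were measured in the same libraries. The 13 macrophage markers summed to 4.73 and 5.19 CPM in shCtrl and 10.2 and 9.73 CPM in shUSP9X, with 2 of them above 3 counts in shCtrl and 4 in shUSP9X. Cd68, the most abundant, stood at 4.27 and 4.30 CPM in shCtrl and 5.97 and 5.05 CPM in shUSP9X. Adgre1 (F4/80) was at 0 in shCtrl and at 58 and 59 counts in shUSP9X, and Csf1r at 0 against 17 and 13. Mrc1, the other marker above 3 counts in shCtrl, was at 8 and 13 counts there and at 8 and 4 in shUSP9X, whereas C1qa, C1qb, Marco, Spic, Timd4 and Vsig4 were at 0 in all 4 libraries. The 11 erythroid markers summed to 0.577 and 1.01 CPM in shCtrl and 0.607 and 1.19 CPM in shUSP9X, and Hbb-bt and Slc4a1 were among those at 0 in all 4 libraries. The part of these markers in the results above was not tested. In bulk RNA, fewer cells of a type and less RNA per cell cannot be told apart.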

How the data were processed

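The authors mapped the reads to GRCm38 and used StringTie and DESeq2, at an unadjusted p under 0.05 and a change above 1.5-fold. The submitters' processing notes also name fastp 0.18.0, Bowtie2 2.2.8, HISAT2, StringTie 1.3.1 and RSEM. The authors deposited, per gene and library, estimated counts (expected counts, 6.4% to 6.69% of them not whole), not normalized, and FPKM values, scaled for length and depth. The annotation release is not given in the sources used here. Groups came from the sample labels. The design had assumed whole counts; the estimated ones were therefore rounded, with no change of test.

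Counts were filtered (filterByExpr), scaled by TMM and tested, two-sided, with edgeR 4.0.16 (quasi-likelihood, R 4.3.3) without a replicate block, with Benjamini-Hochberg adjustment over 11448 genes. With 2 libraries against 2, an exact permutation test cannot go below p = 0.333, so none was used. Duplicate libraries differed by more than sampling noise (chi-square per gene 3.36 and 2.09). Molecular identifiers are not described, so errors cover counting and library spread only. GC content and length came from the longest coding transcript (GENCODE M21, known for 99.8% of tested genes); the offset was a loess fit (span 0.3) per library. Sequence copies were found with blastn 2.17.0. The library kit is not labelled as strand-specific. Alternatives were DESeq2 1.42.0, 3 other scalings, 2 other filters, limma-trend (3.58.1) on FPKM values (log2, pseudocount 1 or 0.1, genes averaging 1 FPKM or more), the block, the offset, both, and each library left out; offsets on GC content alone and on length alone were added after seeing the data. The scripts were tested on simulated data.

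The 10 genes, the lists and the tests were chosen with earlier results of these data known. Besides the 10 genes, Usp9x, Epas1, marker genes and sequence copies, up to 4 genes per list are named, apart from some that are not reported here: of the genes called changed, averaging 3 or more in log2 CPM and with separate group ranges, those with the largest absolute log2 fold change.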

Additional observations from a re-analysis of the deposited data

How the results depend on the processing

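Over 17 alternatives, 6326 to 7821 genes were called changed (7707 without them), 4 to 6 of the 10 genes passed the study's cutoff (with the GC content and length offset Fth1, Ftl1, Aco1 and Tfrc, all higher), and the 8 lists had 20 to 29 genes lower and 62 to 73 higher. Fth1 (log2 fold change 0.92 to 1.24), Ftl1 (0.81 to 1.14), Aco1 (0.59 to 0.86), Hmox1 (0.40 to 0.77) and Gpx4 (0.22 to 0.56) stayed called and higher under all of them. With the GC content and length offset, 0 of the 10 genes were called lower and 8 higher; Tfrc was at 0.70, Ireb2 at 0.24, Acsl4 at 0.17, Ncoa4 at 0.041, Far1 at 0.50 and Agps at 0.64, and the replicate block with that offset gave the same numbers and values, 0, 8, 0.70, 0.24, 0.17, 0.041, 0.50 and 0.64. With the offset on GC content alone, 0 were lower and 7 higher; Tfrc was at 0.67, Ireb2 at 0.11 (edgeR adjusted p = 0.075), Acsl4 at 0.090 (edgeR adjusted p = 0.023), Ncoa4 at 0.043, Far1 at 0.45 and Agps at 0.28. With the offset on length alone, all 4 falls kept their direction and call, Tfrc at -0.10 and Ncoa4 at -0.21, but Agps turned to 0.065. The cause of these turns was not tested. The replicate block alone, in which same-numbered libraries share only a number (correlation of their deviations -0.0453), changed the call of none of the 10 genes, nor did leaving out any library, with Tfrc from -0.37 to -0.34 and Ncoa4 from -0.40 to -0.33. The 3 other scalings shifted the median over all genes by -0.029 to 0.033. Slc40a1, under a mean FPKM of 1, was not fitted in the FPKM alternatives, and its 15 to 23 counts per library limit what can be seen.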
